A study of Mus musculus with 10 samples.

Results

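The tumour necrosis factor (TNF) superfamily was described here in sorted mouse retinal cells through 43 genes of 21869 in the deposited table: 16 ligand genes, 22 receptor genes and 5 genes of the TRAF adaptors that bind the receptors inside the cell. The members were those whose symbol begins with Tnfsf or Tnfrsf, together with Tnf, Lta, Ltb, Ltbr, Cd27, Cd70, Traf1, Traf2, Traf3, Traf5 and Traf6. RNA sequencing covered 10 libraries of live retinal cells sorted for CD11b and for medium CD45, which the labels name microglia. CD36-positive cells gave 5 libraries (numbered 1, 2, 3, 4 and 7) and CD36-negative cells gave 5 (numbered 1, 2, 4, 7 and 8). CD36 is a scavenger receptor for lipids. All titles carry the mark WT. The protocol describes mice given sodium iodate (NaIO3, 20 mg/kg), which damages the pigment epithelium under the retina, or PBS, with eyes taken after 7 days, and the treatment of these 10 samples is not stated. The sources used here give no age, sex or strain and do not say whether libraries came from separate animals, so p-values measure the spread between these samples, which may be technical.

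Ligands of the TNF superfamily are made mostly as membrane proteins that assemble as trimers, and several are cut from the surface by proteases. Their receptors carry cysteine-rich repeats outside the cell. Inside, some bind TRAF adaptors and activate NF-kB and stress kinases, while others carry a death domain and can start apoptosis or necroptosis. In the retina, microglia are a known source of TNF after injury, and many other ligands and receptors of the superfamily act between antigen-presenting cells and lymphocytes.

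Library totals ran from 5001692 to 13250984 counts, and CD36-positive libraries 1 and 3 were the shallowest. Levels are given as CPM, the count of a gene scaled to the same library total in every sample. Cd36 itself averaged 219 ± 39.9 CPM (SD, n = 5) in CD36-positive cells, against 50.3 ± 5.51 CPM (SD, n = 5) in CD36-negative cells. The microglia markers summed to 7083 to 16330 CPM in CD36-positive, against 7228 to 17250 CPM in CD36-negative libraries. Of these 10 markers 0 passed edgeR's test, 2 had an unadjusted p under 0.05, and 0 passed DESeq2.

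Of the 43 members, 30 had enough counts to be tested. At an adjusted p under 0.05 (edgeR quasi-likelihood test, Benjamini-Hochberg over 11596 genes), 5 were lower and 2 higher in CD36-positive cells, and 23 did not pass. Over all genes tested 4.74% were lower and 2.61% higher, 7.36% in either direction. The members that fell were the lymphotoxin ligand gene Ltb, the receptor genes Tnfrsf13c and Tnfrsf18, and the adaptor genes Traf1 and Traf5. The members that rose were the ligand gene Tnfsf13b and the receptor gene Tnfrsf11a. Tnf and the genes of both of its receptors did not pass. The median log2 fold change of the tested members was -0.33, against 0.02 over all genes tested, and 19 of 30 members lay below 0, against 48.8% of all genes. That median depended on members with low counts. With a filter of 10 CPM in 5 samples, which tested 20 members, it was -0.005, against 0.023 over all genes tested there. Of the tested members 7 had every CD36-positive library below every CD36-negative one, and 2 had every one above, where 5.82% and 2.59% of all genes tested did. The filter on low counts needs only 1 group to be high, and Tnfrsf13c passed it through CD36-negative libraries alone. Of the other members that fell, Ltb was past the filter's cutoff in 4 CD36-positive libraries and Tnfrsf18 in 2, each beside 5 CD36-negative ones. Traf1 and Traf5 were past it in 5 libraries of each group. Among members that did not pass the test, Tnfrsf4 was past the cutoff in 2 and Tnfrsf9 in 1 CD36-positive library, each beside 5 CD36-negative ones.

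**Figure D1:**
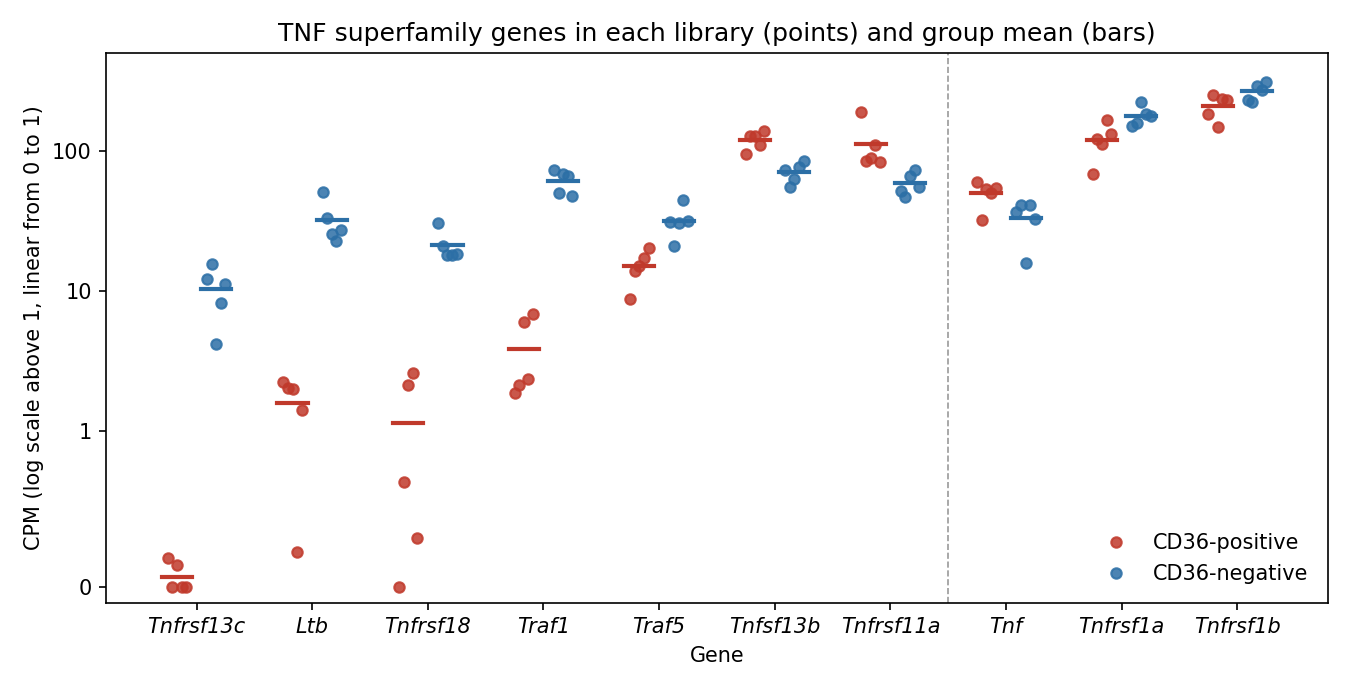
CPM (vertical axis, logarithmic above 1 and linear from 0 to 1) of the 7 members past the threshold, left of the dashed line, and of Tnf, Tnfrsf1a and Tnfrsf1b, right of it; each point is a library, each bar a group mean, CD36-positive in red and CD36-negative in blue. For the 7 genes left of the line the points of the groups do not overlap, and for the 3 genes right of it they do.

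Libraries of the 2 groups also differed in transcripts of other leukocytes. Conventional dendritic cell markers were lower in 10 of 10 tested genes, with summed levels of 22.9 to 53.4 CPM in CD36-positive, against 571.8 to 1133 CPM in CD36-negative libraries. Markers of mature dendritic cells were lower in 9 of 10 (57.0 to 190.7 CPM in CD36-positive, 532 to 691 CPM in CD36-negative libraries). Zmynd15, the gene of that list that did not pass, held 31.8 to 126 CPM of these sums in CD36-positive and 54.5 to 83.6 CPM in CD36-negative libraries. Neutrophil markers fell in 8 of 10 tested genes, with sums of 84.7 to 194 CPM in CD36-positive libraries, against 345.5 to 893 CPM in CD36-negative ones. T and NK cell markers fell in 7 of 8, with 16.4 to 82.7 CPM in CD36-positive libraries, against 182 to 668 CPM in CD36-negative ones. Monocyte markers fell in 7 of 10, with 487.5 to 971 CPM in CD36-positive libraries, against 1307 to 2402 CPM in CD36-negative ones. In all 5 lists the sums of the groups did not overlap. B cell markers summed to 28.9 to 45.0 CPM in CD36-positive, against 16.8 to 42.7 CPM in CD36-negative libraries, and 0 of the 3 tested passed edgeR (0 at an unadjusted p under 0.05 and 0 in DESeq2). Of defining markers, Retnlg of neutrophils had 0 counts over the CD36-positive group and 4123 over the CD36-negative group, and Prf1 of cytotoxic lymphocytes had 0 in CD36-positive and 231 in CD36-negative libraries. Ly6g, another neutrophil marker, was low throughout, with 0 counts in CD36-positive and 13 in CD36-negative libraries. Other neutrophil markers were detected in CD36-positive cells: S100a8 had 174 counts there and 5207 in CD36-negative libraries, and Csf3r, which did not pass (edgeR adjusted p = 0.302), had 5325 counts in CD36-positive and 9263 in CD36-negative libraries. Csf3r alone held 65.1 to 175.5 CPM of the neutrophil sums in CD36-positive libraries. Cxcr2, Mmp8 and Mmp9 had 8, 8 and 20 counts there, against 821, 563 and 1644 in CD36-negative libraries. In CD36-positive libraries Ccl5 likewise held 12.1 to 61.3 CPM of the T and NK cell sums, and Ccr2 255 to 704 CPM of the monocyte sums. Fn1 held a further 129 to 527 CPM of the monocyte sums there. Neither Ccr2 nor Fn1 passed between the groups (edgeR adjusted p = 0.98 and 0.511). Of 7 tested markers of border macrophages 2 were higher and 1 lower in edgeR, against 2 higher and 3 lower in DESeq2. The lower one in edgeR was F13a1, which is also on the monocyte list. Of 10 photoreceptor markers 2 were lower in edgeR and 1 in DESeq2, and 7 had an unadjusted p under 0.05. The median log2 fold change of the photoreceptor list was -1.59. In such bulk libraries fewer cells of a type and less RNA per cell cannot be told apart, and the part of these other cells in the values of the superfamily was not tested.

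**Figure D2:**
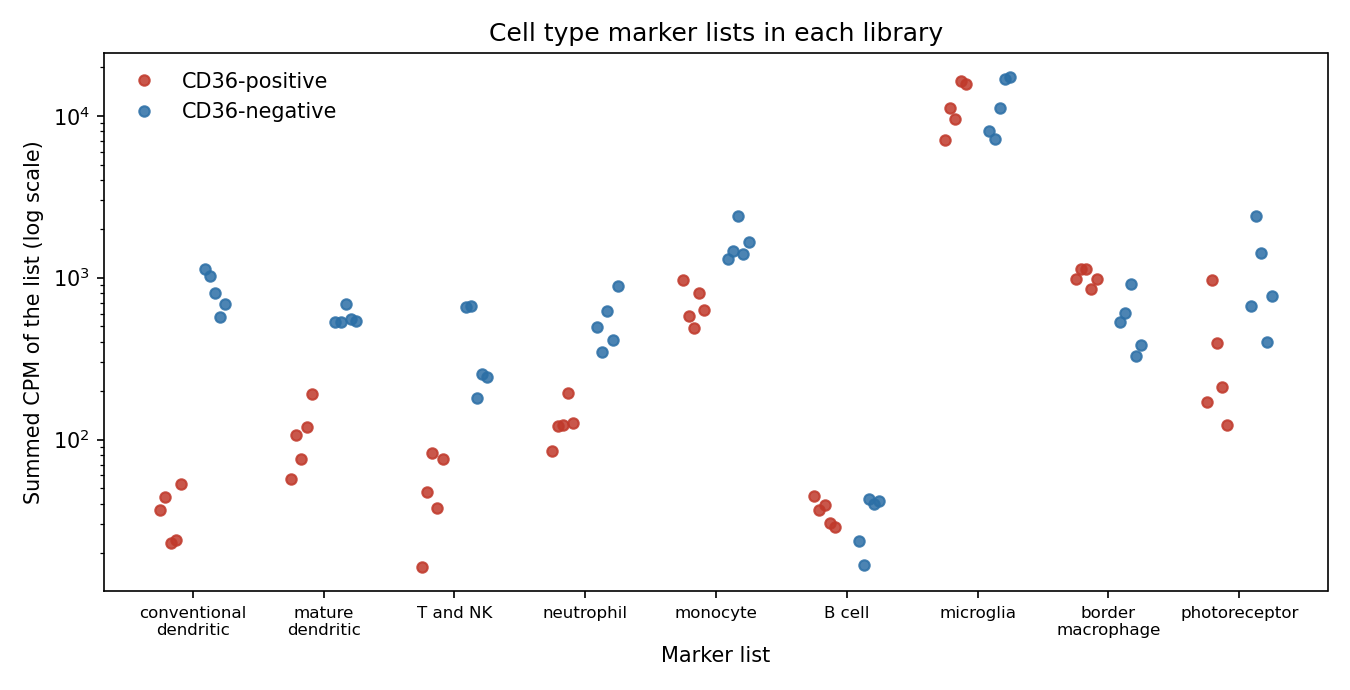
Summed CPM (vertical axis, logarithmic) of each cell type marker list (horizontal axis) in each library, CD36-positive in red and CD36-negative in blue. The conventional dendritic sums lie between 22.9 and 53.4 CPM in CD36-positive, against between 571.8 and 1133 CPM in CD36-negative libraries, while the microglia and B cell sums of the groups overlap.

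Among the genes of TNF, the lymphotoxins and their receptors, 1 of 7 tested members fell and 0 rose (2 falls and 0 rises in DESeq2). The gene that fell was Ltb, which encodes lymphotoxin beta, the membrane subunit that holds lymphotoxin alpha at the cell surface and signals through the lymphotoxin beta receptor. Ltb was at 2.23, 2.03, 2.01, 0.225 and 1.43 CPM in CD36-positive libraries 1, 2, 3, 4 and 7, against 50.8, 33.2, 25.6, 22.65 and 27.4 CPM in CD36-negative libraries 1, 2, 4, 7 and 8. Every CD36-positive library lay well below the lowest CD36-negative one. The log2 fold change was -4.35 (SE 0.46, 95% interval -5.32 to -3.38, edgeR adjusted p = 1.11e-05), or 20.4 times higher in CD36-negative cells. Ltb is a protein-coding gene on chromosome 17 of GRCm38, from 35194439 to 35196320 on the plus strand.

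Tnf, the gene of the cytokine that names the family, lies 3060 bases beyond Ltb on the minus strand, from 35199381 to 35202007. It was at 60.5, 32.4, 53.2, 49.9 and 54.2 CPM in CD36-positive libraries, against 36.5, 40.9, 15.95, 41.0 and 32.7 CPM in CD36-negative ones. The groups overlapped, since CD36-positive library 2 lay below 4 of the 5 CD36-negative libraries. The difference of 0.58 on the log2 scale (SE 0.26, interval 0.03 to 1.13) did not pass (edgeR adjusted p = 0.201). Lta, the lymphotoxin alpha gene that follows 1157 bases further on, had 0 counts in CD36-positive and 27 counts in CD36-negative libraries. Per total count, the exact binomial 95% interval of the ratio of CD36-negative to CD36-positive cells begins at 5.61 (counting error only). These counts came from CD36-negative libraries 1, 2 and 4.

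The promoter windows of both genes, from 250 bases before to 50 after the start (RefSeq, GRCm38.p6, printed along the strand of the gene), are shown because the genes are neighbours with unlike values. Capitals mark matches, on either strand, to GGGA followed by any 4 bases and CC, letters found in some NF-kB sites. The pattern is loose, and a match need not be an NF-kB site. The third sequence is that of Traf5, the other member past the threshold with a match.
Ltb, chr17:35194257-35194556, plus strand: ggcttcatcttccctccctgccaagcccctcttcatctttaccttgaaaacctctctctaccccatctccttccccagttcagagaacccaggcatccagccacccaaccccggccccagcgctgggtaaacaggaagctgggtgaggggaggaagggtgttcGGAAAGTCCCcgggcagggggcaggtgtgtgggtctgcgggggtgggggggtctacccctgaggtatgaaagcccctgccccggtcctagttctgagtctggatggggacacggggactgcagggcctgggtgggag
Tnf, chr17:35201958-35202257, minus strand: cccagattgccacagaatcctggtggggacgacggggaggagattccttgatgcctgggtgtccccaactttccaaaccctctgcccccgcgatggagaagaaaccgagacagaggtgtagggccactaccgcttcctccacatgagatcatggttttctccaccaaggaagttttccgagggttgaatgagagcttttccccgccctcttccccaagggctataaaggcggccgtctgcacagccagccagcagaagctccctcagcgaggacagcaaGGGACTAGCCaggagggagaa
Traf5, chr1:192092550-192092849, minus strand: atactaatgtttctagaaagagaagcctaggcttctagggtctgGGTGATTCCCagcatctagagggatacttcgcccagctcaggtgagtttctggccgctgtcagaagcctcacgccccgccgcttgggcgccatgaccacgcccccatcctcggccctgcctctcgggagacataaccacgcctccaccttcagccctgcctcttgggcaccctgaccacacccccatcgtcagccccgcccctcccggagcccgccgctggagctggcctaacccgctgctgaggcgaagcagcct
In Ltb the match begins 87 bases before the start and reads on the opposite strand, and in Tnf it begins at base 30 of the transcript. RefSeq windows were found for 35 of the 43 members. A match was present for 12 of these 35 genes (34.3%), against 22.9% of the 27025 genes with a window. It was present for 2 of 5 members that fell, for 0 of 2 that rose and for 7 of 19 tested members that did not pass. In Tnfrsf9 the letters GGGATTTCCC, which match on both strands, begin 42 bases before the second annotated start. A match is a description of letters, and a window without one says nothing of the factor.

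The receptors of these ligands were among the highest members. Tnfrsf1b, which encodes TNF receptor 2 of leukocytes, was at 183, 249, 149, 233 and 231 CPM in CD36-positive libraries, against 230.2, 223, 291, 274 and 312 CPM in CD36-negative ones. Tnfrsf1a, the gene of the death domain receptor TNFR1, was at 68.85, 122, 112, 165 and 133 CPM in CD36-positive, against 149.6, 158, 222, 184.5 and 176.5 CPM in CD36-negative libraries. CD36-positive libraries were mostly the lower ones for both genes, with overlap. The log2 fold changes were -0.35 (interval -0.73 to 0.03) and -0.56 (interval -1.01 to -0.12), and neither passed (edgeR adjusted p = 0.285 and 0.125). Ltbr, the lymphotoxin beta receptor gene, was at 56.6 ± 18.4 CPM in CD36-positive, against 52.5 ± 6.95 CPM in CD36-negative libraries (SD, n = 5 each), with an interval of -0.37 to 0.59 on the log2 scale. The interval of the receptor gene does not reach 1 log2 unit in either direction. Tnfsf14, which encodes the ligand LIGHT, was at 0 to 2.87 CPM in CD36-positive, against 4.63 to 10.3 CPM in CD36-negative libraries. Its log2 fold change of -2.27 (SE 0.73) missed the threshold in edgeR (adjusted p = 0.0703) and passed it in DESeq2 (adjusted p = 0.0068). Tnfrsf14, the gene of its receptor HVEM, stood at 0.20 on the same scale (interval -0.47 to 0.86).

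The costimulatory members, whose products pass signals between antigen-presenting cells and lymphocytes, held 1 fall and 0 rises among 5 tested genes (3 falls and 0 rises in DESeq2). Tnfrsf18 encodes GITR, a receptor best known from regulatory and activated T cells. It was at 0, 0.677, 2.15, 2.59 and 0.317 CPM in CD36-positive libraries, against 30.8, 20.95, 18.2, 18.0 and 18.4 CPM in CD36-negative ones. The CD36-negative values were close to each other apart from library 1, and the highest CD36-positive value was far below them. On the log2 scale CD36-positive cells were at -4.19 (SE 0.64, edgeR adjusted p = 0.000403). Tnfrsf18 lies on chromosome 4 of GRCm38 from 156026164 to 156028895, with exon sequence that overlaps Gm16008 on the opposite strand. The sources used here do not say whether counting used strand, so reads of that overlap cannot be told apart. T and NK cell markers, which fell in 7 of 8 tested genes, and dendritic cell markers differed between the same libraries.

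Tnfrsf4, the gene of the costimulatory receptor OX40 of T cells, lies 9551 bases from Tnfrsf18 and was at 1.34 ± 0.789 CPM in CD36-positive, against 6.24 ± 3.80 CPM in CD36-negative libraries (SD, n = 5 each). Its log2 fold change of -2.20 (SE 0.70) did not pass in edgeR (adjusted p = 0.0672; 0.0135 in DESeq2). Tnfrsf9, which encodes the costimulatory receptor CD137, was at 0, 0.339, 0.287, 0.113 and 4.83 CPM in CD36-positive, against 13.9, 8.46, 10.1, 7.93 and 8.02 CPM in CD36-negative libraries. The groups did not overlap, but CD36-positive library 7 stood far above the other 4, and the log2 fold change of -3.02 (SE 0.90) missed the threshold (edgeR adjusted p = 0.0527). Without that library it was -5.55 with an adjusted p of 0.000253. The same library had the highest sum of mature dendritic cell markers in its group, 190.7 CPM against 57.0 to 119 CPM in the other 4. Of that sum 126 CPM was Zmynd15, which did not pass between the groups (edgeR adjusted p = 0.891) and was at 31.8 to 105 CPM in the other 4. Ccr7 of the same list was at 23.2 CPM in CD36-positive library 7, against 0 to 8.88 CPM in the other 4. Ccl22 was at 11.7 CPM there, against 0 to 1.86 CPM in the other 4. Of these mature dendritic cell markers Cd200, Nudt17 and Socs2 were not highest in that library. The part of such cells was not tested. Tnfsf9, the ligand gene of CD137, was at -0.44 on the log2 scale (interval -1.52 to 0.63). Tnfsf8, which encodes CD30 ligand, was at 0.30 (interval -0.23 to 0.82), with levels of 35.5 ± 3.65 CPM in CD36-positive, against 28.9 ± 9.45 CPM in CD36-negative libraries.

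The members known for B cell survival moved in both directions, with 1 rise and 1 fall among 5 tested. Tnfsf13b encodes BAFF, a ligand made by myeloid cells that keeps B cells alive. It was at 94.7, 129, 129, 111 and 138 CPM in CD36-positive libraries, against 73.6, 55.4, 62.6, 77.25 and 84.3 CPM in CD36-negative ones. The lowest CD36-positive library lay above the highest CD36-negative one. The log2 fold change was 0.77 (SE 0.18, interval 0.38 to 1.16, edgeR adjusted p = 0.015); without CD36-negative library 4 it was 0.71 and did not pass (adjusted p = 0.0593). Tnfsf13b lies on chromosome 8 of GRCm38, from 10006467 to 10039072.

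Tnfrsf13c, the gene of the BAFF receptor, went the other way from its ligand. It was at 0.186, 0, 0.143, 0 and 0 CPM in CD36-positive libraries, against 12.3, 15.7, 4.19, 8.25 and 11.2 CPM in CD36-negative ones. With 2 counts over the CD36-positive group and 553 over the CD36-negative group, the level per total count was 227 times higher in CD36-negative cells (exact binomial 95% interval 62.6 to 1880, counting error only). The edgeR adjusted p was 4.42e-05. The receptor is typical of B cells, and of the B cell markers Cd79a, a chain of the B cell receptor complex, was at 1.27 CPM in CD36-positive, against 1.05 CPM in CD36-negative libraries on average. Ms4a1, the CD20 gene, had 82 counts in CD36-positive and 18 in CD36-negative libraries. Tnfrsf13c lies on chromosome 15 from 82221743 to 82224369. Tnfrsf13b, which encodes TACI, another receptor for BAFF and for its relative APRIL, was much higher, at 79.4 to 139 CPM in CD36-positive, against 112 to 173 CPM in CD36-negative libraries, and its log2 fold change of -0.44 (interval -0.84 to -0.04) did not pass (edgeR adjusted p = 0.184). Tnfsf13, the gene of APRIL, was at 26.1 ± 6.25 CPM in CD36-positive, against 31.4 ± 10.3 CPM in CD36-negative libraries (SD, n = 5 each) with a log2 fold change of -0.27. It shares exon sequence with the read-through gene Tnfsfm13, as does Tnfsf12, and their deposited counts held fractions, so the split of reads among them is uncertain. Tnfsfm13 itself was at -0.42 on the log2 scale (interval -2.09 to 1.24). Tnfrsf17, the gene of the plasma cell receptor BCMA, was not tested at 27 counts over CD36-positive and 33 over CD36-negative libraries.

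Tnfrsf11a encodes RANK, the receptor whose signal drives osteoclast formation from myeloid precursors. It was at 188, 85.01, 89.55, 110.4 and 83.6 CPM in CD36-positive libraries, against 52.1, 47.0, 66.05, 73.2 and 55.6 CPM in CD36-negative ones. All CD36-positive libraries were higher, and library 1 stood above the other 4. The log2 fold change was 0.92 (SE 0.24, interval 0.42 to 1.42, edgeR adjusted p = 0.0251). The call did not hold without CD36-negative library 1, 2, 4 or 8 (adjusted p = 0.0649, 0.0682, 0.055 and 0.062), or without CD36-positive libraries 1 and 3 together (log2 fold change 0.66, adjusted p = 0.0582). Tnfrsf11a lies on chromosome 1 from 105780718 to 105847981. Its ligand gene Tnfsf11 (RANKL) had 0 counts in CD36-positive libraries and 50 in CD36-negative ones, of which 47 were in library 1, and Tnfrsf11b, the gene of the soluble decoy osteoprotegerin, had 0 counts in CD36-positive and 4 in CD36-negative libraries. Of these 3 genes the receptor alone had enough counts to be tested. Of the TWEAK pair, Tnfsf12 was at 29.2 ± 4.76 CPM in CD36-positive, against 26.0 ± 4.55 CPM in CD36-negative libraries, and the receptor gene Tnfrsf12a was at 0.54 on the log2 scale (interval -0.36 to 1.44).

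Death ligands, death receptors and decoys had 0 calls among 5 tested genes in edgeR, where 2 had an unadjusted p under 0.05; DESeq2 gave 1 rise, that of Tnfrsf22. Tnfrsf21, which encodes the death domain receptor DR6, was at 60.85 to 99.1 CPM in CD36-positive, against 48.4 to 191 CPM in CD36-negative libraries (log2 fold change -0.76, edgeR adjusted p = 0.149; -0.97 and 0.0326 without CD36-negative library 2). Tnfsf10, the gene of the apoptosis ligand TRAIL, was at 6.99 ± 4.45 CPM in CD36-positive, against 8.64 ± 3.18 CPM in CD36-negative libraries, and Tnfrsf10b, its receptor gene, was too low to test. Tnfrsf22, a decoy receptor gene of rodents, was at 98.2, 31.6, 38.9, 26.7 and 11.9 CPM in CD36-positive, against 20.5, 15.9, 20.6, 20.4 and 17.4 CPM in CD36-negative libraries. CD36-positive library 1 stood far above the rest, and the log2 fold change was 1.12 (edgeR adjusted p = 0.106) with all libraries and 0.51 without that one. Without CD36-positive library 7, the lowest, it was 1.35 and passed (adjusted p = 0.0196). Tnfrsf22, Tnfrsf23 and Tnfrsf26 are neighbours on chromosome 7 with closely related sequences, and counts of Tnfrsf22 and Tnfrsf23 held fractions, so their split is uncertain. Tnfrsf23, also a decoy receptor gene, was at -0.29 on the log2 scale (interval -1.91 to 1.32) and Tnfrsf26 at -1.91 (interval -3.85 to 0.02).

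Of the 5 TRAF genes, 2 fell and 0 rose (the same counts in DESeq2). Traf1 encodes an adaptor without a RING domain that joins TRAF2 on several receptors of the superfamily and is itself induced by NF-kB. It was at 1.86, 2.145, 6.02, 2.365 and 6.89 CPM in CD36-positive libraries, against 73.5, 49.75, 69.0, 66.5 and 47.7 CPM in CD36-negative ones. The spread within each group was small beside the gap between them. The log2 fold change was -3.96 (SE 0.37, interval -4.74 to -3.18, edgeR adjusted p = 3.05e-06), the smallest p of any member. Traf1 lies on chromosome 2 of GRCm38 from 34941750 to 34961772. As for Ltb, the same libraries were separated by the sums of conventional and mature dendritic cell, T and NK cell, neutrophil and monocyte markers, and the part of such cells was not tested.

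Traf5, the gene of an adaptor used by costimulatory receptors and the lymphotoxin beta receptor, was at 8.75, 14.0, 15.2, 17.1 and 20.2 CPM in CD36-positive, against 31.2, 20.85, 30.6, 44.7 and 31.5 CPM in CD36-negative libraries. The groups met closely at CD36-positive library 7 and CD36-negative library 2 without crossing. The log2 fold change was -1.07 (SE 0.28, edgeR adjusted p = 0.027). The call did not hold without CD36-negative library 1, 4, 7 or 8 (adjusted p = 0.0542, 0.0529, 0.0938 and 0.0565) or without CD36-positive libraries 1 and 3 together (0.0731). Traf5 lies on chromosome 1 from 191997205 to 192092559, with an exon that overlaps Gm26879 on the opposite strand. The other adaptors differed by less: Traf2, partner of TRAF1, was at -0.12 on the log2 scale (interval -0.69 to 0.46), Traf3, a brake on alternative NF-kB signalling, at 0.27 (interval -0.34 to 0.88), and Traf6, the adaptor shared with Toll-like and IL-1 receptors, at 0.12 (interval -0.49 to 0.73).

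**Figure D3:**
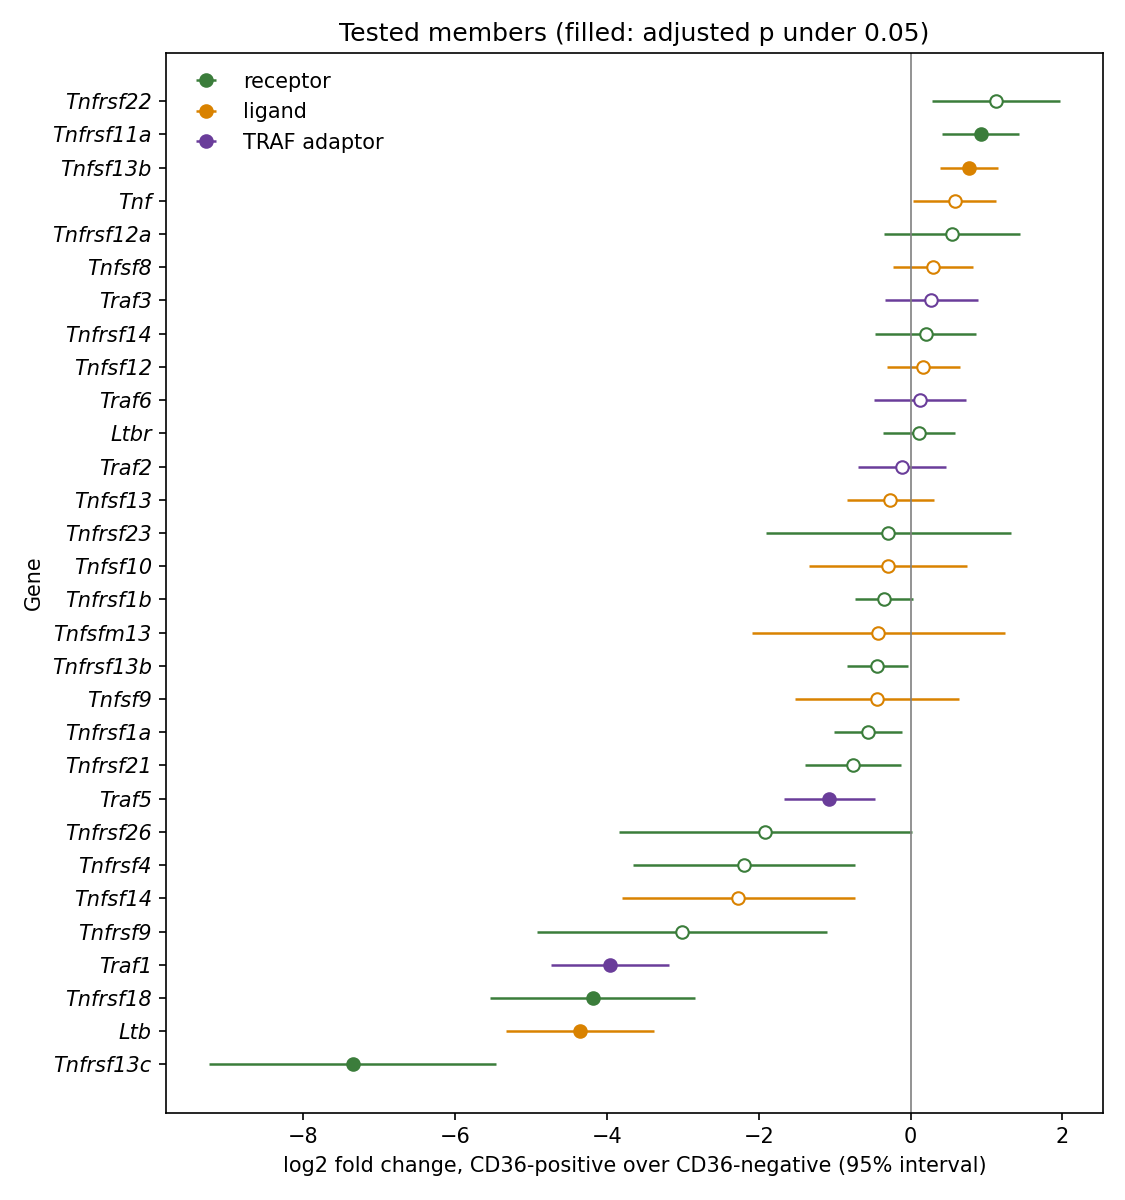
Log2 fold change of CD36-positive over CD36-negative cells (horizontal axis) with its 95% interval for the 30 tested members (vertical axis), coloured as ligand, receptor or TRAF adaptor; filled points passed an adjusted p of 0.05. Values run from -7.35 for Tnfrsf13c to 1.12 for Tnfrsf22, and the filled points comprise 2 ligand, 3 receptor and 2 TRAF genes.

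To compare members with each other, mean CPM was divided by the length of annotated exon, as CPM per kilobase. On this scale Tnfrsf1b (54.7 ± 10.9 in CD36-positive and 69.7 ± 10.1 in CD36-negative libraries, SD, n = 5 each) and Tnfrsf1a (46.5 ± 13.5 in CD36-positive and 68.8 ± 10.9 in CD36-negative libraries) were highest over all libraries and did not differ from each other beyond their spread. Tnfrsf13b followed at 37.9 ± 7.54 in CD36-positive and 51.6 ± 9.19 in CD36-negative libraries. Tnf, at 30.5 ± 6.45 in CD36-positive and 20.4 ± 6.32 in CD36-negative libraries, was the highest ligand gene per length in CD36-positive cells. Ltb was the highest ligand gene by mean in CD36-negative cells, at 21.1 ± 7.405, a value within the spread of Tnf there, but was at 1.05 ± 0.539 in CD36-positive cells. Tnfrsf11a and Tnfsf13b stood close together at 18.6 ± 7.41 and 17.5 ± 2.525 in CD36-positive cells, and at 9.82 ± 1.78 and 10.3 ± 1.69 in CD36-negative cells.

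**Figure D4:**
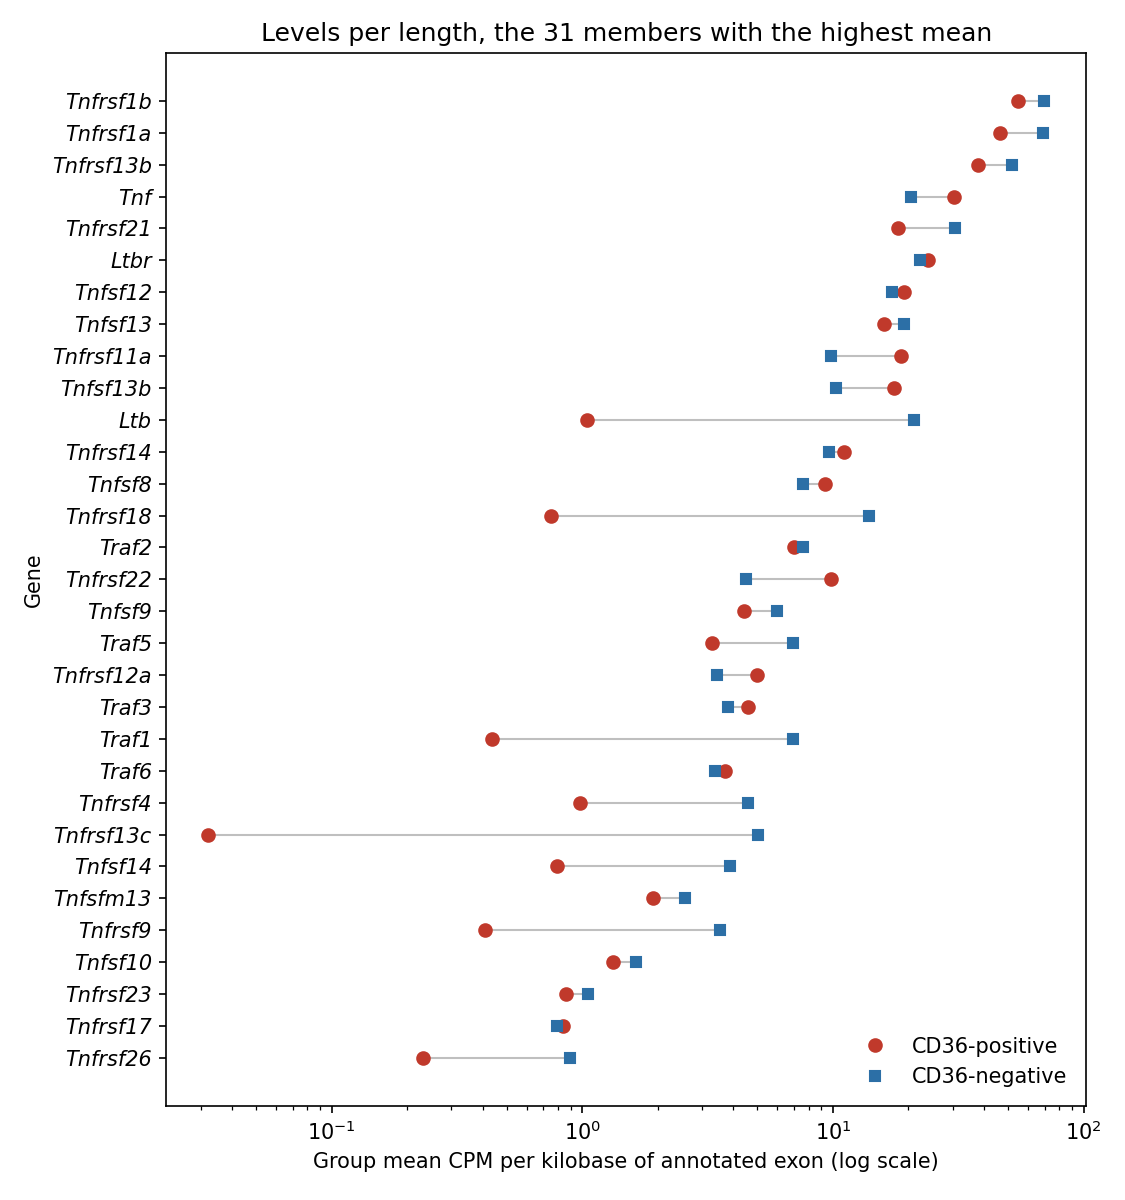
Group mean CPM per kilobase of annotated exon (horizontal axis, logarithmic) for the 31 members with the highest mean over all libraries (vertical axis), CD36-positive as red circles and CD36-negative as blue squares. Tnfrsf1b, at 54.7 in CD36-positive and 69.7 in CD36-negative cells, is at the top, and Tnfrsf13c has the widest gap.

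The 13 members that were not tested were all low, with at most 4.03 CPM in any library. Of these, 5 had no count in any CD36-positive library: Lta, Tnfsf11, Tnfrsf11b, Tnfrsf8 (CD30) and Tnfsf4 (OX40 ligand), with 27, 50, 4, 10 and 17 counts over the CD36-negative group. Cd27, a T and B cell receptor gene, had 5 counts in CD36-positive and 55 in CD36-negative libraries. Tnfrsf19, the gene of the orphan receptor TROY, had 3 counts in CD36-positive libraries and 0 in CD36-negative ones, at or under the floor in both. The ligand gene Tnfsf15 (TL1A) had 21 counts in CD36-positive and 60 in CD36-negative libraries, and the gene of its receptor DR3, Tnfrsf25, had 19 in CD36-positive and 24 in CD36-negative libraries. Tnfrsf10b had 56 counts in CD36-positive and 24 in CD36-negative libraries. Cd70, the ligand gene of CD27, had 2 counts in CD36-positive and 5 in CD36-negative libraries, and Tnfsf18, the ligand gene of GITR, had 3 in CD36-positive and 5 in CD36-negative libraries. A floor of 3 counts in 1 library corresponds to 0.238 to 0.558 CPM.

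Other genes of the pathway were read from 6 lists with 66 tested genes, of which 2 rose and 11 fell (median log2 fold change -0.19, against 0.02 over all genes). Over all genes tested 2.61% rose and 4.74% fell in edgeR, and these shares stand beside the counts of each list below. Among superfamily members under other symbols, 1 of 4 tested fell: Relt, a TNF receptor family gene of leukocytes, averaged 13.2 CPM in CD36-positive, against 56.6 CPM in CD36-negative libraries (log2 fold change -2.09, SE 0.33, edgeR adjusted p = 0.00056). Ngfr, a neurotrophin receptor gene, had the next smallest p, with a log2 fold change of -2.56 (edgeR adjusted p = 0.224). Fasl, the gene of Fas ligand, was not tested and was at 0 to 0.287 CPM in CD36-positive, against 0.167 to 9.01 CPM in CD36-negative libraries, beside T and NK cell markers at 16.4 to 82.7 CPM in CD36-positive, against 182 to 668 CPM in CD36-negative libraries.

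Of 18 kinases and NF-kB factors 7 fell and 0 rose, also in DESeq2, with a median log2 fold change of -0.47. These were the NF-kB subunit genes Relb (-1.45), Nfkb2 (-1.12) and Nfkb1 (-0.94), the inhibitor genes Nfkbie (-1.44) and Nfkbia (-0.65), Ikbkb, a kinase that marks inhibitors for decay (-0.89), and Map3k14, the kinase NIK of the alternative pathway (-0.84). Relb averaged 27.4 CPM in CD36-positive, against 75.3 CPM in CD36-negative libraries (SE 0.23, edgeR adjusted p = 0.000566). Nfkbia and Map3k14 stood near the threshold (adjusted p = 0.0498 and 0.0422) and each lost its call in most fits that left out 1 library: Map3k14 without library 1, 2 or 3 of the CD36-positive group or library 1, 2, 4 or 8 of the CD36-negative group (adjusted p up to 0.111), and Nfkbia without any 1 library other than CD36-positive library 7 (adjusted p up to 0.126). The other 5 passed in every such fit. Rela and Rel, subunit genes of the canonical pathway, were at -0.41 and -0.62 and did not pass. Mature dendritic cells, whose markers fell in 9 of 10 genes, are known for high RELB, and their part was not tested.

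The adaptor and ubiquitin list had 0 calls among 16 tested genes in edgeR (3 at an unadjusted p under 0.05, 0 in DESeq2). Birc3, a ubiquitin ligase gene of receptor complexes, was at -0.58 and Traf4, an adaptor gene, at -2.06 with the smallest p values. The cell death list had 0 calls among 8 (0 at an unadjusted p under 0.05 and 0 in DESeq2), with Bid, a link to mitochondria, at -0.41 on the log2 scale. Of 6 shedding genes 1 fell, Frmd8, which stabilises the sheddase complex (-0.68, SE 0.18, edgeR adjusted p = 0.0236), and that call did not hold when library 3 of the CD36-positive group or library 1, 2, 4 or 7 of the CD36-negative group was left out (adjusted p = 0.0511 to 0.0577). Adam10, a sheddase gene, was at 0.39 (adjusted p = 0.183) and Adam17, the TNF sheddase itself, at 0.34 (adjusted p = 0.256).

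Of 14 tested genes known to be induced by TNF, 2 rose and 2 fell (3 rises and 2 falls in DESeq2, and 6 genes at an unadjusted p under 0.05), and the median log2 fold change was -0.07. Ccl2, a monocyte chemoattractant gene, averaged 241 CPM in CD36-positive, against 84.9 CPM in CD36-negative libraries (log2 fold change 1.503, edgeR adjusted p = 0.00413), with CD36-positive library 3 highest at 516.8 CPM and the other 4 at 156 to 189.6 CPM. Bcl2a1b, a survival gene with close copies that can share reads, was at 0.98 (adjusted p = 0.00135). Ccl5, a chemokine gene also on the T and NK cell list, was at -2.25 and Il1b, the interleukin-1 beta gene, at -1.53 (adjusted p = 0.00166 for both). Cxcl2, a neutrophil chemoattractant gene, had the highest log2 fold change of the list, 2.08 (SE 0.69), and did not pass (edgeR adjusted p = 0.0807). It was at 3.16, 15.9, 29.2, 1.80 and 25.9 CPM in CD36-positive libraries, against 5.32, 1.71, 3.37, 1.25 and 6.27 CPM in CD36-negative ones, so the groups overlapped.

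**Figure D5:**
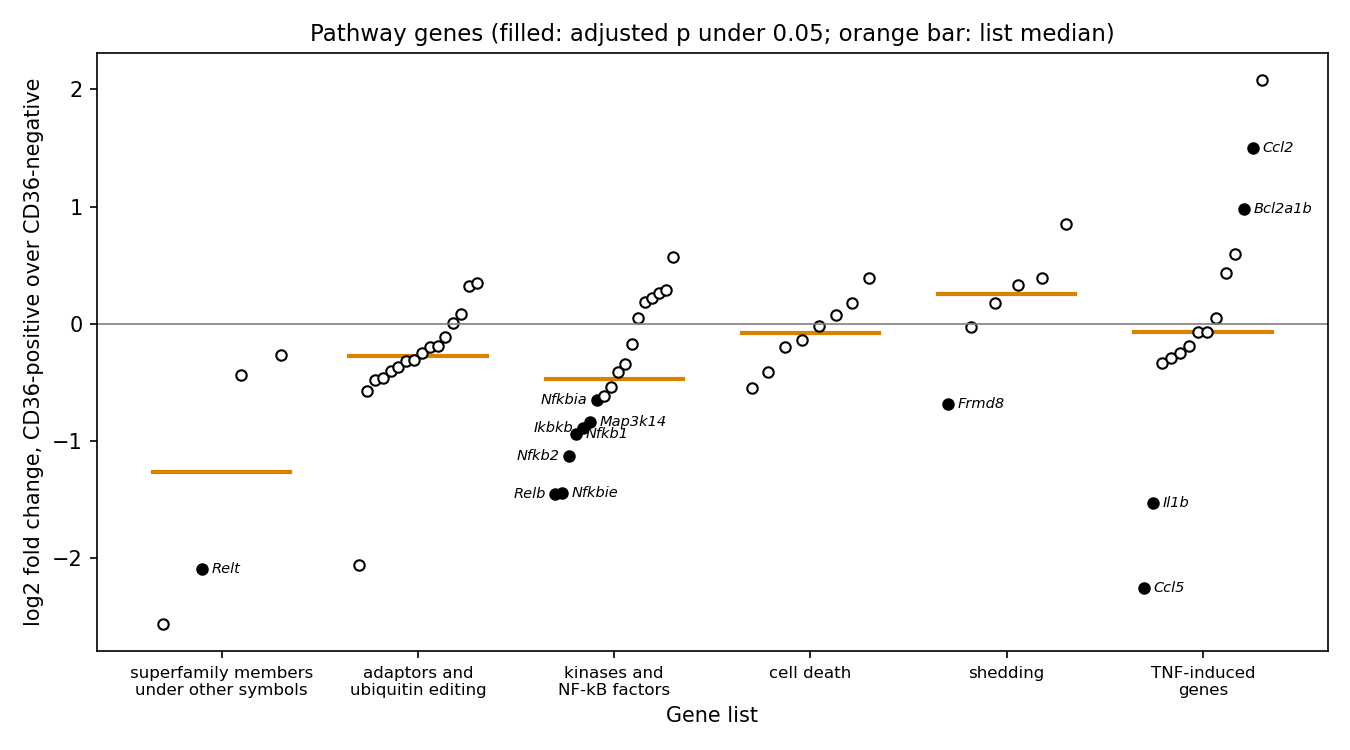
Log2 fold change of CD36-positive over CD36-negative cells (vertical axis) for the 66 tested genes of the 6 pathway lists (horizontal axis); filled and named points passed an adjusted p of 0.05, and orange bars are list medians. The kinase and NF-kB list holds 7 filled points, all below 0, while the adaptor and cell death lists hold none.

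Many members sit beside each other in the genome: 23 of 43 fell into 9 groups with gaps of at most 100 kb. In these groups no 2 neighbours were both past the threshold. On chromosome 4 the receptor genes Tnfrsf4 (-2.20) and Tnfrsf18 (-4.19) lie side by side, with Tnfrsf18 alone past the threshold. On chromosome 17 Ltb fell beside Tnf at 0.58. On chromosome 6 Ltbr (0.11) and Tnfrsf1a (-0.56) lie 35476 bases apart. On chromosome 17 the ligand gene Tnfsf9 was at -0.44 and Tnfsf14, in the same group, at -2.27.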

How the data were processed

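Expected counts (estimated, not always whole: 91.9% of values were) were deposited by the authors as 1 table with a row per gene symbol and no normalization. Per the submitters' processing notes, tools included HISAT2 2.1.0, StringTie 1.3.1, Bowtie2 2.2.8 and fastp 0.18.0, with the build mm10, in no stated role or order, and the sources used here do not name the counting program. Of 22008 rows, 8 with missing fields and 131 exact repeats were dropped; the nearest member lay 73 rows away. Values were rounded, filtered with filterByExpr (minimum count 10), scaled with TMM and tested with edgeR 4.0.16 in R 4.3.3 (glmQLFit and glmQLFTest, group as the only term, Benjamini-Hochberg over 11596 genes). CPM used TMM-scaled totals. Floors of 3 counts and 95% binomial intervals cover counting error only. A check of the test on simulated data is not reported here.

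The members and lists were chosen with earlier results of these data known. Members named are those past the threshold, the 10 highest by mean CPM, and Tnf, Tnfrsf1a, Tnfrsf1b, Tnfsf13b and Traf1. In each pathway list the genes past the threshold and the 2 with the smallest p are named, except for a result that is not reported here. Other genes named were chosen after their values were seen. Within groups, replicate pairs differed beyond sampling noise (chi-square over degrees of freedom from 22.1 to 109). Coordinates and exon lengths come from GENCODE vM21 (GRCm38). Alternatives were DESeq2 1.42.0, other scaling, filters and thresholds, a replicate block and left-out libraries.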

Additional observations from a re-analysis of the deposited data

Results flagged for a closer look

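In 2 of 28 groups of 5 libraries (14 named members), 1 library lay farther from the rest than Dixon's 95% critical value allows, and chance gives about 1 in 20 such groups. Tnfrsf11a was at 188.3 CPM in CD36-positive library 1, against 83.6 to 110.4 CPM in the other 4 of that group. Tnfrsf18 was at 30.8 CPM in CD36-negative library 1, against 18.0 to 20.95 CPM in the other 4.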

How the results depend on the processing

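Against 2 higher and 5 lower members, DESeq2 gave 3 higher and 8 lower, the fit without a filter on low counts 3 and 6, and a filter of 10 CPM in 5 samples, which tested 20 members and not Tnfrsf13c, 2 and 4. An adjusted p of 0.01 as the threshold left 0 higher and 4 lower, and CD36-positive libraries 1 and 3 left out together gave 1 higher. Leaving out 1 library gave 0 to 3 higher and 4 to 6 lower members, and 2 to 3 higher and 8 to 12 lower pathway genes. Ltb, Tnfrsf18 and Traf1 passed in every setting run, and Tnfrsf13c in every one that tested it. With the replicate number as a block, 1 member was higher and 4 lower, and Traf5 (-1.09, adjusted p = 0.0711) and Tnfrsf11a (0.91, adjusted p = 0.0784) lost their calls. Same-numbered libraries correlated at 0.029 to 0.133 in their deviations and not every library correlated best with its own number, so the numbers were not taken to pair the samples. Of 237 results for named members under an alternative, 216 kept direction and call, 16 lost the call, 1 gained it and 4 reversed. Those that reversed were near 0 throughout: Traf2 was at 0.049 without CD36-positive libraries 1 and 3 and at -0.235 to 0.065 with 1 library left out, and Ltbr at -0.062 to 0.214. The cause was not tested. Members under about 0.5 CPM rest on a few counts. By counting error only, the binomial interval of the ratio of CD36-negative to CD36-positive cells lay above 1 for Lta, Tnfsf11, Tnfsf4 and Tnfrsf8. It began at 5.61, 10.7, 3.39 and 1.84 for these genes, and it included 1 for Cd70, Tnfrsf11b, Tnfrsf19 and Tnfsf18. In the fit without a filter on low counts Lta, Tnfsf11, Tnfsf4 and Tnfrsf8 did not pass (edgeR adjusted p = 0.124, 0.0942, 0.172 and 0.209).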
